A study of Homo sapiens with 6 samples.

Results

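The genes described here encode glycosyltransferases, the Golgi enzymes that build mucin-type, sialylated and fucosylated glycans. They were chosen by symbol alone: every gene of the count table whose symbol began with GALNT, B3GNT, B3GALT, B4GALT, B4GALNT, ST3GAL, ST6GAL, ST8SIA, FUT or MGAT with a digit, or GCNT, leaving out antisense and pseudogene names. The rule gave 81 gene rows of the 30051 in the table, with 80 distinct symbols, because a readthrough gene model carries the symbol ST6GALNAC6 beside the gene itself. RNA was sequenced from MDA-MB-231, an established human line of claudin-low triple-negative breast cancer that grows as mesenchymal-like cells with few epithelial junctions. Parallel cultures in serum-containing DMEM/F-12 were harvested 24 h after adding either DMSO as solvent or panobinostat at 50 nM, which blocks a broad range of histone deacetylases. The 3 DMSO libraries carry the numbers 1, 2 and 3 and the 3 panobinostat libraries 1, 2 and 4, and the series describes the repeats as independent. All 6 libraries come from 1 cell line and 1 dose at 1 time, so neither a dose series nor a second line stands behind any value.

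Glycans are assembled stepwise by enzymes that each add 1 kind of sugar in 1 kind of linkage. Polypeptide GalNAc-transferases (GALNT) start mucin-type O-glycans on serine and threonine, GCNT enzymes branch them, and MGAT enzymes branch the N-glycans carried on asparagine. B3GNT and B4GALT enzymes extend chains with alternating GlcNAc and galactose, and ST3GAL, ST6GAL, ST6GALNAC, ST8SIA and FUT enzymes cap or decorate them with sialic acid and fucose, which many lectins read at the surface of breast cancer cells.

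Library totals ran from 5389638 to 15106148 counts. Levels are counts over all exons of a gene, per 1000000 of the library total after TMM scaling (CPM), and each group has n = 3. Gene coordinates are those of GENCODE release 29 on GRCh38. Of the marker genes of the line, VIM, CD44 and EGFR stood at 2567, 761 and 593 CPM in DMSO, and CDH1, CLDN3, ESR1 and PGR had 1, 1, 5 and 2 counts over the DMSO libraries. In panobinostat these 3 stood at 2870, 810 and 344 CPM, and the other 4 had 0, 7, 13 and 19 counts. EPCAM fell from 18.5 ± 1.66 to 11.2 ± 2.12 CPM (edgeR adjusted p = 0.00628), as EGFR did (edgeR adjusted p = 0.00348), CLDN4 rose from 1.24 ± 0.378 to 4.05 ± 0.821 CPM (edgeR adjusted p = 0.00308), and CLDN7 was not called at 15.5 ± 0.503 CPM in DMSO and 15.6 ± 1.62 in panobinostat. For leukocytes, PTPRC had 0 counts in DMSO and 2 in panobinostat and CD14 had 14 and 74, a rise called at log2 2.21 ± 0.36 (edgeR adjusted p = 0.00226), and for endothelium VWF had 10 and 28, CDH5 had 3 and 8, and PECAM1 stood at 6.88 and 4.64 CPM. The part of such cells in the results was not tested. CLDN4 and CD14 had enough counts to be tested only through the panobinostat libraries, so neither could have been called lower. Panobinostat replicate 4 stood apart from replicates 1 and 2, with a library quality weight of 0.118 where the other 5 had 1.28 to 1.75, and lay between them and DMSO for most genes below.

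Panobinostat shifted most of the expressed glycosyltransferase genes, in both directions and in nearly equal numbers. Of the 81 rows, 55 had enough counts to be tested, and 26 did not. By edgeR's quasi-likelihood test at a Benjamini-Hochberg adjusted p under 0.05, 22 tested members rose, 21 fell and 12 were not called. Leaving out panobinostat 1, panobinostat 2, DMSO 2 or DMSO 3 gave 13, 14, 14 and 14 rises, and 14, 15, 15 and 16 falls. In these fits 23.1% to 24.7% of all tested genes were called higher and 19.5% to 21.8% lower. With all 6 libraries the same rule called 58.9% of the 13341 tested genes, 30.2% higher and 28.6% lower. A call in itself was thus the usual outcome in these cells. The same shares are the background to each class and list count below that uses all 6 libraries. Among genes with a mean of at least 10 CPM, 63.9% were called, beside 35 of 42 members (83.3%). At least 2-fold rises were found for 7 members and at least 2-fold falls for 2, where the background was 10.9% and 4.66% of tested genes. Without panobinostat replicate 4 these numbers were 8 and 4, and no 2-fold background was computed for that fit. The median log2 fold change of the tested members, panobinostat over DMSO, was 0.03, beside 0.0 for all tested genes. The 3 libraries of one group lay wholly above or below the 3 of the other for 23 members in each direction, and the groups overlapped for 9, where 35.0% of all tested genes stood apart upward and 34.0% downward. In bulk RNA, a change in the RNA of each cell and a change in which cells survived cannot be told apart.

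**Figure D1:**
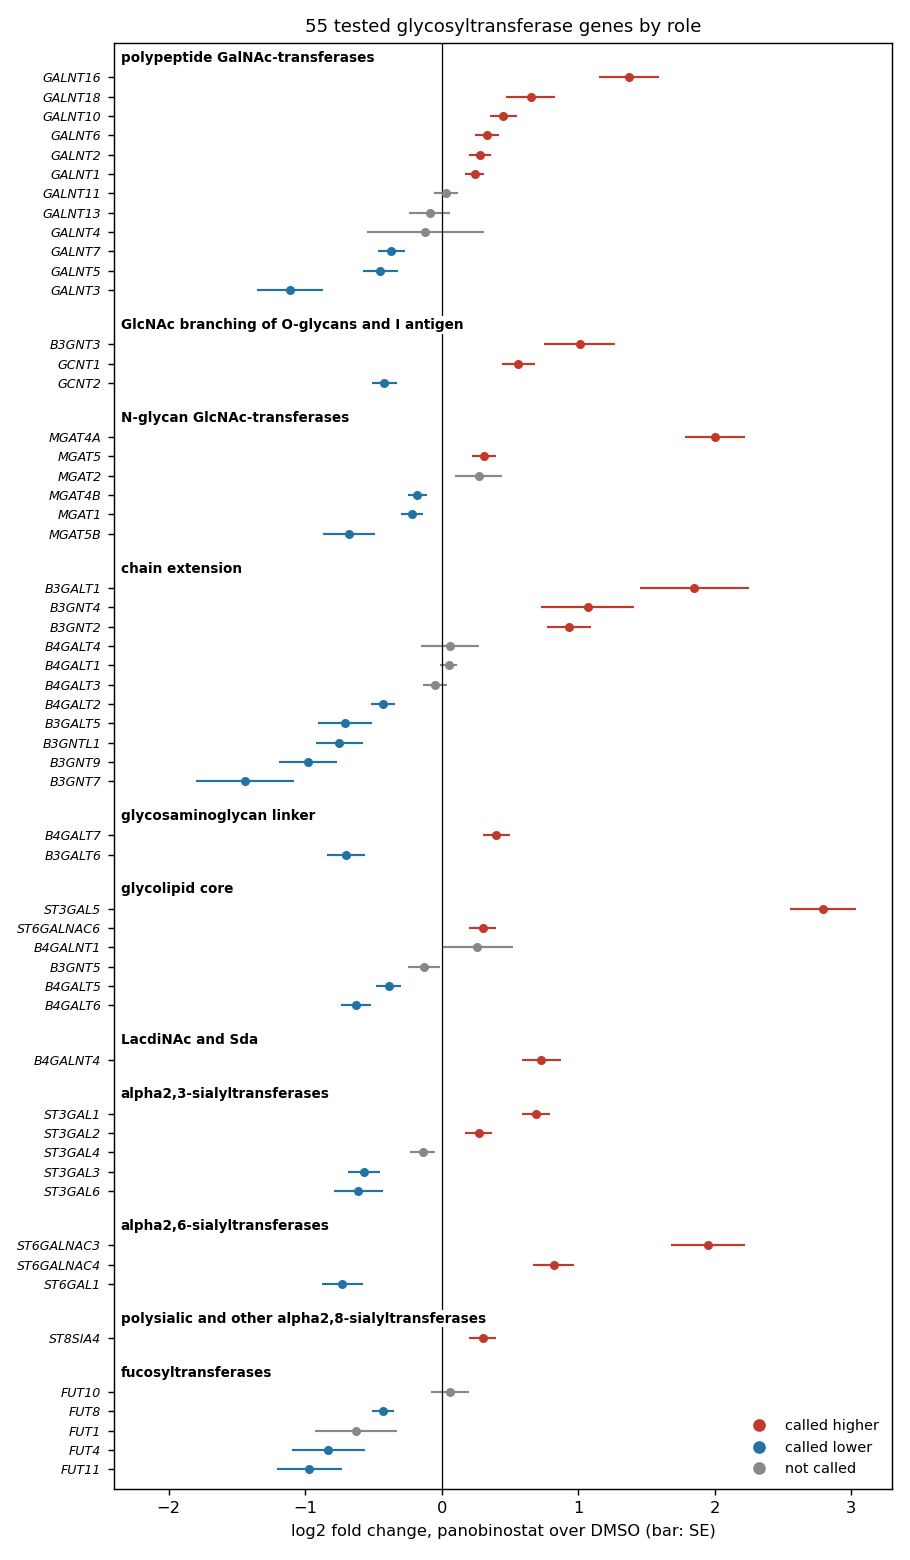
Log2 fold change of panobinostat over DMSO (horizontal axis) for the 55 tested glycosyltransferase genes, grouped by the step they carry out, with bars for the SE and colours for the call (n = 3 per group). The estimates run from -1.44 for B3GNT7 to 2.79 for ST3GAL5, and most groups hold genes on both sides of 0. None of the 5 tested fucosyltransferases was called higher, where 30.2% of all tested genes were.

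The 3 promoters printed here belong to the member with the largest rise, to a sialyltransferase that also rose several-fold, and to the member with the largest fall, so that genes moving in opposite directions can be read side by side. The sequences are RefSeq windows on GRCh38.p14, from 250 bases before to 50 after a listed transcript start, written 5′ to 3′ on the gene's strand, with each GC box (GGGCGG, on either strand) in capitals. For ST3GAL5 this is the first of 5 windows listed (chr2:85888941-85889240, minus strand), for ST6GALNAC3 the only one (chr1:76074496-76074795, plus strand), and for B3GNT7 the only one (chr2:231395460-231395759, plus strand).
ST3GAL5: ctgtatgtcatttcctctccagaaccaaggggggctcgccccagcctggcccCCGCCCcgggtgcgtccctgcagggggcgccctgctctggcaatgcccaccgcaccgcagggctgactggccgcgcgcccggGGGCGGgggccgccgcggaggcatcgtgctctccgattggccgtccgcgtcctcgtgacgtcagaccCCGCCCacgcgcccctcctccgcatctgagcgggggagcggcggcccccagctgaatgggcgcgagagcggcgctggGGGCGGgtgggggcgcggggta
ST6GALNAC3: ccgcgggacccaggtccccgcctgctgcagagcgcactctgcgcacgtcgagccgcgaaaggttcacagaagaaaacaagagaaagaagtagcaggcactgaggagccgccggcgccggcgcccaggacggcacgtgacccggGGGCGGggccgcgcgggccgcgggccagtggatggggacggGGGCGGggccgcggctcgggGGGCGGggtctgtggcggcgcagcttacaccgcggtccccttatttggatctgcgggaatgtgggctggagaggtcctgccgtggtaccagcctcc
B3GNT7: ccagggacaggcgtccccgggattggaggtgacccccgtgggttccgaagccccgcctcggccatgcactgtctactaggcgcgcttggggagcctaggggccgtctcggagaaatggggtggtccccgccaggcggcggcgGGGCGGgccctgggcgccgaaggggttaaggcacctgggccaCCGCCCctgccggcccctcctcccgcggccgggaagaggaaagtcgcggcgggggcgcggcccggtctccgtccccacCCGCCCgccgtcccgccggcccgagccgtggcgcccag
The 3 printed windows are alike in composition. They hold 4, 3 and 3 GC boxes, a GC content of 76.3%, 72.0% and 77.3%, and 36, 35 and 37 CpG dinucleotides, in the order printed. The likeness depends on the window chosen, as the GC content of the other ST3GAL5 windows ran from 47.0% to 80.3%. MGAT4A, which rose slightly more than ST6GALNAC3, had no listed window. Windows were listed for 57 member genes, 97 in all. A GC box lay in 69.0% of the 29 windows of members called higher, in 53.1% of the 32 of members called lower, in 73.3% of the 15 of members not called, and in 66.0% over all tested genes (69.1% of those called higher, 63.8% of those called lower) and 45.0% over all windows. The windows of members called higher, lower and not called came from 16, 16 and 9 genes. A gene with several listed starts is therefore counted repeatedly. The cyclic AMP response element TGACGTCA, searched on both strands, lay in 2 windows of members called higher, both of ST3GAL5, and in 2.81% of the windows of all tested genes. Members with too few counts to test had windows poorer in CpG, with a median ratio of observed to expected CpG of 0.31 over 21 windows. The median was 0.82 for members called higher, 0.71 for those called lower and 0.71 for those not called. It was 0.82 over all tested genes (0.80 for those called higher, 0.84 for those called lower) and 0.58 over all windows. Which listed start these cells use was not measured, and a match to these letters is a description of the window only.

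Among the enzymes of glycolipid synthesis, the gene for the first sialylation step rose most of all members while both lactosylceramide synthases fell. ST3GAL5 (ENSG00000115525, chr2:85837120-85905199) encodes GM3 synthase, which adds sialic acid to lactosylceramide and so opens the ganglioside pathway. It stood at 6.86, 5.84 and 6.67 CPM in DMSO and 53.7, 50.5 and 29.9 CPM in panobinostat, in the order of the library numbers used throughout. All 3 panobinostat libraries lay far above DMSO, with replicate 4 the lowest of them. The fold change was 6.92-fold, or 2.79 ± 0.24 on the log2 scale (estimate ± SE), with an edgeR adjusted p of 0.000573. B4GALT5 and B4GALT6, which make the lactosylceramide that GM3 synthase uses, fell from 106 ± 1.81 to 80.98 ± 10.1 CPM (log2 -0.39 ± 0.09, edgeR adjusted p = 0.00891) and from 51.04 ± 0.866 to 33.2 ± 4.94 CPM (log2 -0.63 ± 0.11, edgeR adjusted p = 0.00341). ST6GALNAC6, which adds a further sialic acid to gangliosides, rose slightly, from 31.6 ± 0.422 to 38.9 ± 3.97 CPM (log2 0.30 ± 0.10, edgeR adjusted p = 0.0345). In GENCODE release 29, 47.0% of its exon bases also belong to the readthrough model, so its counts may be shared. B3GNT5, which starts the lacto-series, was not called at 26.1 ± 1.79 CPM in DMSO and 23.9 ± 2.91 in panobinostat (log2 -0.13 ± 0.12). B4GALNT1, the GM2 and GD2 synthase, was not called either, at 3.0 ± 0.228 CPM in DMSO and 3.43 ± 0.999 in panobinostat (log2 0.26 ± 0.26). The group thus held 2 higher, 2 lower and 2 uncalled genes of 6 tested, with 4 more rows untested. The call of ST6GALNAC6 was lost without any 1 of the 5 libraries other than panobinostat replicate 4 (edgeR adjusted p 0.0952 to 0.126), without the filter on low counts and by DESeq2. B3GNT5 was called lower only with replicate number as a block (edgeR adjusted p = 0.0425, within 0.0425 to 0.796 over its alternatives).

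The polypeptide GalNAc-transferases, which start O-glycans and overlap in the peptides they prefer, changed in both directions, with 6 higher, 3 lower and 3 uncalled among 12 tested. GALNT16 (ENSG00000100626, chr14:69259277-69357033) had the largest rise, and stood at 11.02, 13.7 and 12.7 CPM in DMSO and 35.4, 38.8 and 21.5 CPM in panobinostat. The groups were apart, and the log2 fold change was 1.37 ± 0.22 (edgeR adjusted p = 0.00226). GALNT3 (ENSG00000115339, chr2:165747591-165794682), known for glycosylating the phosphate hormone FGF23, had the largest fall, and stood at 35.6, 35.01 and 34.9 CPM in DMSO and 13.5, 11.4 and 24.4 CPM in panobinostat. Its DMSO libraries were within 1 CPM of each other, and replicate 4 lost less than replicates 1 and 2. Its log2 fold change was -1.11 ± 0.24 (edgeR adjusted p = 0.00591). The abundant isoenzymes rose by little: GALNT10, the highest of them in plain CPM, went from 282 ± 9.29 to 385 ± 55.6 CPM (log2 0.45 ± 0.10, edgeR adjusted p = 0.00738). GALNT2 went from 155 ± 11.05 to 188 ± 14.9 CPM (log2 0.28 ± 0.08) and GALNT1 from 164 ± 3.45 to 194 ± 14.7 CPM (log2 0.24 ± 0.07). These 2 enzymes act broadly on many peptides. GALNT6, linked to breast epithelium, rose from 43.4 ± 2.21 to 54.5 ± 4.05 CPM (log2 0.33 ± 0.09), and GALNT18 from 12.6 ± 1.15 to 19.9 ± 4.23 CPM (log2 0.65 ± 0.18). GALNT7, which acts on peptides that already carry GalNAc, fell from 62.4 ± 2.31 to 48.4 ± 6.03 CPM (log2 -0.37 ± 0.10), and GALNT5 from 15.4 ± 1.49 to 11.2 ± 0.771 CPM (log2 -0.45 ± 0.13). GALNT11 and GALNT13 were not called, with log2 differences of 0.03 ± 0.09 and -0.09 ± 0.15. GALNT4 was not called at -0.12 ± 0.43, and 93.2% of its exon bases lie in the readthrough gene POC1B-GALNT4, so its counts are uncertain. Several of the smaller calls did not hold with 1 library fewer. The GALNT1 call was lost without any 1 of the 5 libraries other than panobinostat replicate 4 (edgeR adjusted p 0.0606 to 0.0894), that of GALNT2 without DMSO 1 or 2 or panobinostat 1 or 2 (0.0559 to 0.0919), and that of GALNT6 without DMSO 1 or 3 or panobinostat 1 or 2 (0.0549 to 0.0699). Likewise GALNT7 was not called without DMSO 3 or panobinostat 1 or 2 (edgeR adjusted p 0.0552 to 0.0612), GALNT5 without DMSO 1 or 2 or panobinostat 2 (0.0507 to 0.0713), and GALNT18 without DMSO 2 or 3 or panobinostat 1 (0.0517 to 0.0568), and GALNT1 and GALNT6 were not called without the filter.

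Of B3GNT3, GCNT1 and GCNT2, the tested genes of the class that acts on O-glycan cores and makes the I antigen, 2 rose and 1 fell. B3GNT3 (ENSG00000179913, chr19:17794828-17813082), which extends core 1 O-glycans with GlcNAc, stood at 5.68, 4.84 and 4.81 CPM in DMSO and 10.98, 13.8 and 6.62 CPM in panobinostat. The groups did not overlap, although replicate 4 was close to the highest DMSO library, and the log2 fold change was 1.01 ± 0.26 (edgeR adjusted p = 0.0116). GCNT1, the core 2 branching enzyme on which selectin ligands of O-glycans are built, rose from 39.7 ± 0.567 to 58.6 ± 8.92 CPM (log2 0.56 ± 0.12, edgeR adjusted p = 0.0052). GCNT2, the enzyme of the I blood group antigen, fell from 145 ± 2.59 to 109 ± 12.4 CPM (log2 -0.42 ± 0.09, edgeR adjusted p = 0.00564). GCNT3, the core 2 and core 4 enzyme of mucous tissues, had 1 count in DMSO and 6 in panobinostat, and was not tested.

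Of the 6 tested MGAT genes, 2 rose, 3 fell and 1 was not called, and the rise of MGAT4A was the largest change among them. MGAT4A (ENSG00000071073, chr2:98619106-98731126) adds the beta1,4-linked GlcNAc branch on the alpha1,3 mannose arm. It stood at 6.1, 6.12 and 4.5 CPM in DMSO and 25.96, 25.00 and 16.3 CPM in panobinostat. Each panobinostat library was more than 2 times the highest DMSO library, and the fold change was 3.99-fold (log2 2.0 ± 0.22, edgeR adjusted p = 0.000721). MGAT4B, its more abundant isoenzyme for the same branch, fell slightly from 127 ± 1.61 to 112 ± 5.43 CPM (log2 -0.18 ± 0.07, edgeR adjusted p = 0.0443). MGAT5, which adds the beta1,6 branch of N-glycans, rose from 81.7 ± 4.51 to 101 ± 10.3 CPM (log2 0.31 ± 0.09, edgeR adjusted p = 0.0221). MGAT5B, which branches O-mannose glycans, fell from 10.6 ± 0.586 to 6.79 ± 1.56 CPM (log2 -0.68 ± 0.19, edgeR adjusted p = 0.016). MGAT1, whose step opens the way to all hybrid and complex N-glycans, fell from 155 ± 6.42 to 133 ± 9.68 CPM (log2 -0.22 ± 0.08, edgeR adjusted p = 0.0377). MGAT2, the next enzyme, was not called at 13.9 ± 1.81 CPM in DMSO and 16.9 ± 2.96 in panobinostat (log2 0.27 ± 0.17), and 91.9% of its exon bases face an antisense gene, so its counts are uncertain if strand was not used in counting. The calls of MGAT1 and MGAT4B were lost without any 1 library but panobinostat 4 (with edgeR, adjusted p 0.0585 to 0.13 and 0.0814 to 0.154 respectively), that of MGAT5 without DMSO 2 or 3 or panobinostat 1 or 2 (0.0629 to 0.105), and that of MGAT5B without DMSO 1 or 2 or panobinostat 1 (0.0544 to 0.0662). MGAT1 was also lost with library size as the only scaling, MGAT5 without the filter and MGAT4B in 5 further alternatives, while MGAT2 was called higher with the replicate block (edgeR adjusted p = 0.0276, within 0.0276 to 0.531 over its alternatives).

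Among the enzymes that extend chains with GlcNAc and galactose, 11 were tested: 3 of these rose, 5 fell and 3 did not pass. B3GNT2 (ENSG00000170340, chr2:62196113-62224731), the main enzyme of poly-N-acetyllactosamine, stood at 25.4, 22.8 and 20.02 CPM in DMSO and 46.5, 50.7 and 33.9 CPM in panobinostat. Every panobinostat library exceeded every DMSO library, and the log2 fold change was 0.93 ± 0.16 (edgeR adjusted p = 0.00304). B3GNT7 (ENSG00000156966, chr2:231395543-231401164), which extends sulfated chains such as keratan sulfate, stood at 26.5, 28.5 and 24.98 CPM in DMSO and 5.85, 7.17 and 17.8 CPM in panobinostat. The 2 groups did not overlap, but replicate 4 was far nearer to DMSO than replicates 1 and 2 were. The log2 fold change of B3GNT7 was -1.44 ± 0.36 (edgeR adjusted p = 0.0102), and it was -2.11 without panobinostat replicate 4. B3GNT9 (ENSG00000237172, chr16:67148105-67151214), a relative by sequence, stood at 4.83, 5.69 and 5.59 CPM in DMSO and 2.43, 3.31 and 2.56 CPM in panobinostat. Here replicate 4 lay between the other 2 panobinostat libraries, and the log2 fold change was -0.98 ± 0.21 (edgeR adjusted p = 0.00523). B3GNTL1 (ENSG00000175711, chr17:82942155-83051810), another relative, stood at 9.49, 9.54 and 9.0 CPM in DMSO and 6.18, 4.23 and 5.87 CPM in panobinostat, with groups apart and a log2 fold change of -0.75 ± 0.17 (edgeR adjusted p = 0.00761). The exons of B3GNT9 and B3GNTL1 overlap genes on the opposite strand over 14.9% and 11.4% of their bases.

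The galactosyltransferases of the same chains showed the abundant B4GALT1 without a call and other members on either side. B4GALT1, the main enzyme that makes N-acetyllactosamine, stood at 129.9 ± 3.31 CPM in DMSO and 135 ± 1.15 in panobinostat (log2 0.05 ± 0.06, edgeR adjusted p = 0.455). B4GALT3 and B4GALT4 were not called either, with log2 differences of -0.05 ± 0.09 and 0.06 ± 0.21. For B4GALT3, 28.7% of the exon bases overlap PPOX on the other strand. B4GALT2 fell from 56.2 ± 4.33 to 41.8 ± 1.3 CPM (log2 -0.43 ± 0.09, edgeR adjusted p = 0.00526). B3GALT5, which makes the type 1 chains that carry Lewis a antigens, fell from 26.8 ± 3.24 to 16.5 ± 4.78 CPM (log2 -0.71 ± 0.20, edgeR adjusted p = 0.015). B3GALT1, another type 1 chain enzyme, rose from 0.708 ± 0.256 to 2.35 ± 0.826 CPM (log2 1.85 ± 0.40, edgeR adjusted p = 0.00593), on 17 and 71 counts in all. It and B3GNT4 passed the filter only through panobinostat, so neither could have been called lower. B3GNT4, also a poly-N-acetyllactosamine enzyme, rose from 1.1 ± 0.367 to 2.36 ± 0.685 CPM (log2 1.07 ± 0.34, edgeR adjusted p = 0.0271), with 20.7% of its exon bases in common with DIABLO on the other strand. The call of B3GALT5 was lost without DMSO 1 or 2 or panobinostat 1 (edgeR adjusted p 0.0579 to 0.0607), and that of B3GNT4 without DMSO 2 or 3 or panobinostat 1 or 2 (0.0594 to 0.165) and by DESeq2.

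The 2 members that build the linker of glycosaminoglycans onto proteins moved apart. B4GALT7, which adds the first galactose after xylose, rose from 24.5 ± 0.706 to 32.6 ± 2.79 CPM (log2 0.40 ± 0.10, edgeR adjusted p = 0.0101). B3GALT6, which adds the second galactose, fell from 36.8 ± 1.9 to 22.6 ± 4.53 CPM (log2 -0.70 ± 0.14, edgeR adjusted p = 0.00482). B4GALNT4 (ENSG00000182272, chr11:369796-382116), which makes the GalNAc-GlcNAc unit called LacdiNAc, was the single tested gene of its class and stood at 11.8, 11.1 and 12.1 CPM in DMSO and 21.6, 20.04 and 16.3 CPM in panobinostat. All panobinostat libraries were above DMSO, and the log2 fold change was 0.73 ± 0.14 (edgeR adjusted p = 0.00386). Its relative B4GALNT3 had 1 count in the 3 DMSO libraries and 33 in panobinostat, too few to be tested, with a depth-scaled ratio of 30.6 (exact 95% interval 5.11 to 1243, counting error only).

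Of the 5 alpha2,3-sialyltransferases that cap glycoproteins, 2 rose, 2 fell and 1 was not called. ST3GAL1, which caps core 1 to give the sialyl-T antigen, rose from 62.5 ± 3.11 to 101 ± 11.8 CPM (log2 0.69 ± 0.10, edgeR adjusted p = 0.0016). ST3GAL2, which acts on core 1 and on gangliosides, rose from 40.1 ± 3.29 to 48.2 ± 2.83 CPM (log2 0.27 ± 0.10, edgeR adjusted p = 0.0393). ST3GAL3, a sialyltransferase of N-acetyllactosamine and type 1 chains, fell from 28.3 ± 2.92 to 18.96 ± 1.58 CPM (log2 -0.57 ± 0.12, edgeR adjusted p = 0.00531). ST3GAL6, which contributes to sialyl Lewis x, fell from 10.9 ± 0.858 to 7.06 ± 1.53 CPM (log2 -0.61 ± 0.18, edgeR adjusted p = 0.0192). ST3GAL4, the other enzyme of sialyl Lewis x, stood at 29.3 ± 0.49 CPM in DMSO and 26.6 ± 0.761 in panobinostat (log2 -0.14 ± 0.09, edgeR adjusted p = 0.207) and was not called, although its groups did not overlap. The call of ST3GAL2 was lost without any 1 library other than panobinostat replicate 4 (edgeR adjusted p 0.0744 to 0.167), without the filter and by DESeq2, and that of ST3GAL6 without DMSO 1 or 3 or panobinostat 1 or 2 (0.0578 to 0.0628).

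Of the 3 tested alpha2,6-sialyltransferases, 2 rose and 1 fell. ST6GALNAC3 (ENSG00000184005, chr1:76074719-76634601) adds a second sialic acid to the GalNAc of sialyl-T, giving disialyl-T, and also acts on gangliosides. It stood at 4.32, 3.99 and 5.28 CPM in DMSO and 18.3, 22.8 and 11.3 CPM in panobinostat. The lowest panobinostat library, replicate 4, was still above 2 times the highest DMSO library, and the fold change was 3.87-fold (log2 1.95 ± 0.27, edgeR adjusted p = 0.00137). ST6GALNAC4 (ENSG00000136840, chr9:127907886-127917038), which makes the same disialyl-T structure, stood at 24.1, 21.6 and 22.3 CPM in DMSO and 44.6, 44.7 and 30.7 CPM in panobinostat. Its groups were apart, with a log2 fold change of 0.82 ± 0.15 (edgeR adjusted p = 0.00379). ST6GAL1, which caps N-glycan branches with alpha2,6-linked sialic acid, fell from 54.6 ± 4.01 to 33.2 ± 7.31 CPM (log2 -0.73 ± 0.15, edgeR adjusted p = 0.00505). ST8SIA4, a polysialyltransferase of the adhesion molecule NCAM, rose from 22.2 ± 1.01 to 27.3 ± 1.78 CPM (log2 0.30 ± 0.10, edgeR adjusted p = 0.0336). Its call was lost without any 1 library other than panobinostat replicate 4 (edgeR adjusted p 0.0761 to 0.131), without the filter and by DESeq2.

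No fucosyltransferase was called higher: of 5 tested, 3 fell and 2 were not called. The called share of 60.0% was near the 58.9% of all tested genes, where 30.2% were higher and 28.6% lower. FUT8, which alone makes the core fucose of N-glycans, fell from 250.4 ± 3.41 to 186 ± 20.1 CPM (log2 -0.43 ± 0.08, edgeR adjusted p = 0.00407). FUT11 (ENSG00000196968, chr10:73772291-73780251), which belongs to the alpha1,3-fucosyltransferase family by sequence, stood at 23.98, 22.9 and 18.8 CPM in DMSO and 8.68, 9.19 and 16.6 CPM in panobinostat. The groups were apart, with replicate 4 under the lowest DMSO library, and the log2 fold change was -0.97 ± 0.24 (edgeR adjusted p = 0.0106). FUT4 (ENSG00000196371, chr11:94543840-94549898), which makes the Lewis x antigen, stood at 10.00, 12.2 and 12.1 CPM in DMSO and 5.19, 4.6 and 9.63 CPM in panobinostat. Replicate 4 nearly reached the lowest DMSO library here, and the log2 fold change was -0.83 ± 0.27 (edgeR adjusted p = 0.0266). FUT1, the H antigen enzyme of red cells, stood at 2.42 ± 0.217 CPM in DMSO and 1.51 ± 0.594 in panobinostat and was not called (log2 -0.63 ± 0.30, edgeR adjusted p = 0.0972). FUT10 was not called at 9.7 ± 0.709 CPM in DMSO and 10.2 ± 0.659 in panobinostat (log2 0.06 ± 0.14). Without panobinostat replicate 4, FUT1 was called lower as well (edgeR adjusted p = 0.0241, within 0.0103 to 0.241 over its alternatives), which gave 0 higher and 4 lower. In that setting 37.6% of all tested genes were called higher and 36.9% lower. FUT1 passed the filter only through the DMSO libraries, so it could not have been called higher. FUT4 was not called without any 1 of the other 5 libraries (edgeR adjusted p 0.0518 to 0.109).

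FUT2, the secretor enzyme that makes H antigen in epithelia, was among the 26 untested rows, with 3 counts over the DMSO libraries and 36 over panobinostat. The depth-scaled ratio was 11.1 (exact 95% interval 3.51 to 56.4). GALNT12 had 1 and 14 counts (ratio 13.0, interval 1.97 to 548) and GCNT4, a core 2 enzyme, had 5 and 22 (ratio 4.07, interval 1.51 to 13.8). MGAT4C, a relative of MGAT4A, went the other way with 14 and 1 counts (ratio 0.0661, interval 0.00156 to 0.435). These intervals cover counting error only and carry no library-to-library spread. GALNT9 had 31 and 27 counts, ST8SIA1, the GD3 synthase, 18 and 18, ST8SIA5 11 and 16, ST8SIA6 13 and 8, and GCNT7 8 and 8. MGAT3, the bisecting GlcNAc enzyme, had 0 and 4. The remaining untested rows had at most 7 counts in either group, and GALNTL5 was the 1 member with 0 counts in all 6 libraries.

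**Figure D2:**
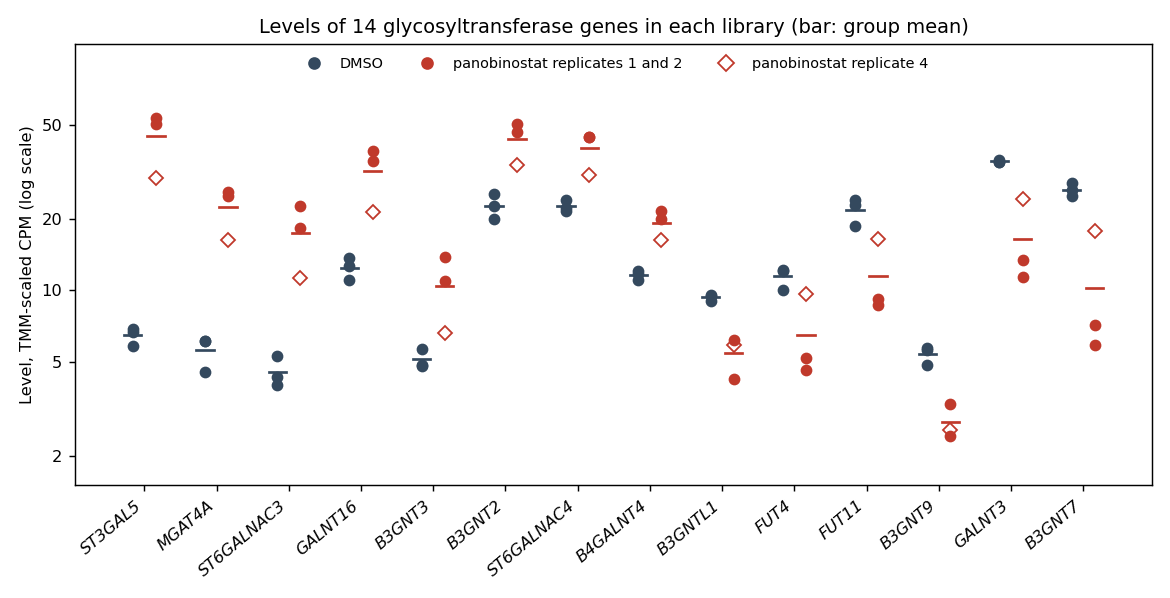
Level of 14 members in each of the 6 libraries (vertical axis, TMM-scaled CPM on a log scale), ordered from the largest rise to the largest fall, with DMSO in dark, panobinostat replicates 1 and 2 filled red, replicate 4 as open diamonds and group means as bars. No group overlaps the other for any of the 14 genes, and replicate 4 lies nearest to DMSO for all but B3GNTL1 and B3GNT9.

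The highest members in DMSO changed by less than 2-fold, but their order differed in panobinostat. Per kilobase of exon, FUT8 was the highest member in DMSO, at 37.4 ± 0.510 CPM per kb (SD), followed by GALNT1 at 32.1 ± 0.674 CPM per kb. GALNT10 at 26.9 ± 0.886 and B4GALT1 at 26.5 ± 0.675 CPM per kb came next and did not differ beyond their spread. MGAT4B at 23.1 ± 0.294 and B4GALT5 at 22.5 ± 0.384 CPM per kb were close neighbours as well, and GALNT2 (20.01 ± 1.43), GCNT2 (15.96 ± 0.286), B4GALT2 (14.9 ± 1.15) and B4GALT3 (13.7 ± 0.978) completed the first 10. The log2 fold changes of these 10 lay between -0.43 and 0.45, with 3 higher, 5 lower and 2 not called. Of the 7 members that rose at least 2-fold, B3GALT1 and B3GNT4 passed the filter only through the panobinostat libraries, which fixes their low start. The other 5 had DMSO means from 4.53 CPM for ST6GALNAC3 to 12.5 CPM for GALNT16. The 2 members that fell at least 2-fold, B3GNT7 and GALNT3, started at 26.7 and 35.2 CPM. Such starting levels were general. Of all tested genes that rose at least 2-fold, 76.3% had DMSO means under 15 CPM, with a median of 3.36 CPM. Some of these genes were tested only through the panobinostat libraries. Of those that fell at least 2-fold, 34.9% started under 15 CPM, with a median of 27.0 CPM.

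The make-up of several families differed between the groups, and so did some of their sums. Shares are given of the summed CPM per kb of a family in each library, as mean ± SD, without a test. The MGAT sum was 53.3 CPM per kb in both groups, while MGAT4A went from 1.08 ± 0.181% to 4.37 ± 1.07% of it and MGAT4B from 43.2 ± 0.514% to 38.2 ± 1.23%. In the B3GNT family, B3GNT2 and B3GNT7 were near each other in DMSO, at 33.2 ± 1.94% and 29.4 ± 1.42%. In panobinostat B3GNT2 held 54.6 ± 5.88% and B3GNT7 held 10.2 ± 7.53%, or 5.82% in the mean of replicates 1 and 2 alone. In the ST3GAL family, ST3GAL5 went from 1.86 ± 0.214% to 9.99 ± 2.18%, ST3GAL1 from 33.1 ± 0.335% to 41.8 ± 1.68%, and ST3GAL4 from 30.8 ± 1.13% to 22.1 ± 1.29%. The ST3GAL sum itself went from 21.3 ± 0.854 to 27.1 ± 2.29 CPM per kb, and the level of ST3GAL4, which was not called, enters its share against that larger sum. Among ST6GAL and ST6GALNAC genes, ST6GAL1 went from 28.1 ± 0.771% to 13.1 ± 4.87% and ST6GALNAC4 from 40.7 ± 0.337% to 52.7 ± 4.12%, of a sum that went from 21.2 ± 0.991 to 28.7 ± 3.77 CPM per kb. FUT8 held 81.2 ± 0.834% and 82.6 ± 1.88% of the FUT sum, while that sum went from 46.0 ± 0.222 to 33.6 ± 4.27 CPM per kb. The GALNT sum was 115 ± 1.58 and 134 ± 10.0 CPM per kb, the B4GALT sum 93.4 ± 0.981 and 83.1 ± 2.90 CPM per kb, and the B3GNT sum 23.9 ± 1.62 and 27.8 ± 2.90 CPM per kb. Exon lengths are those of whole gene models, so a share depends on which transcripts the cells make.

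**Figure D3:**
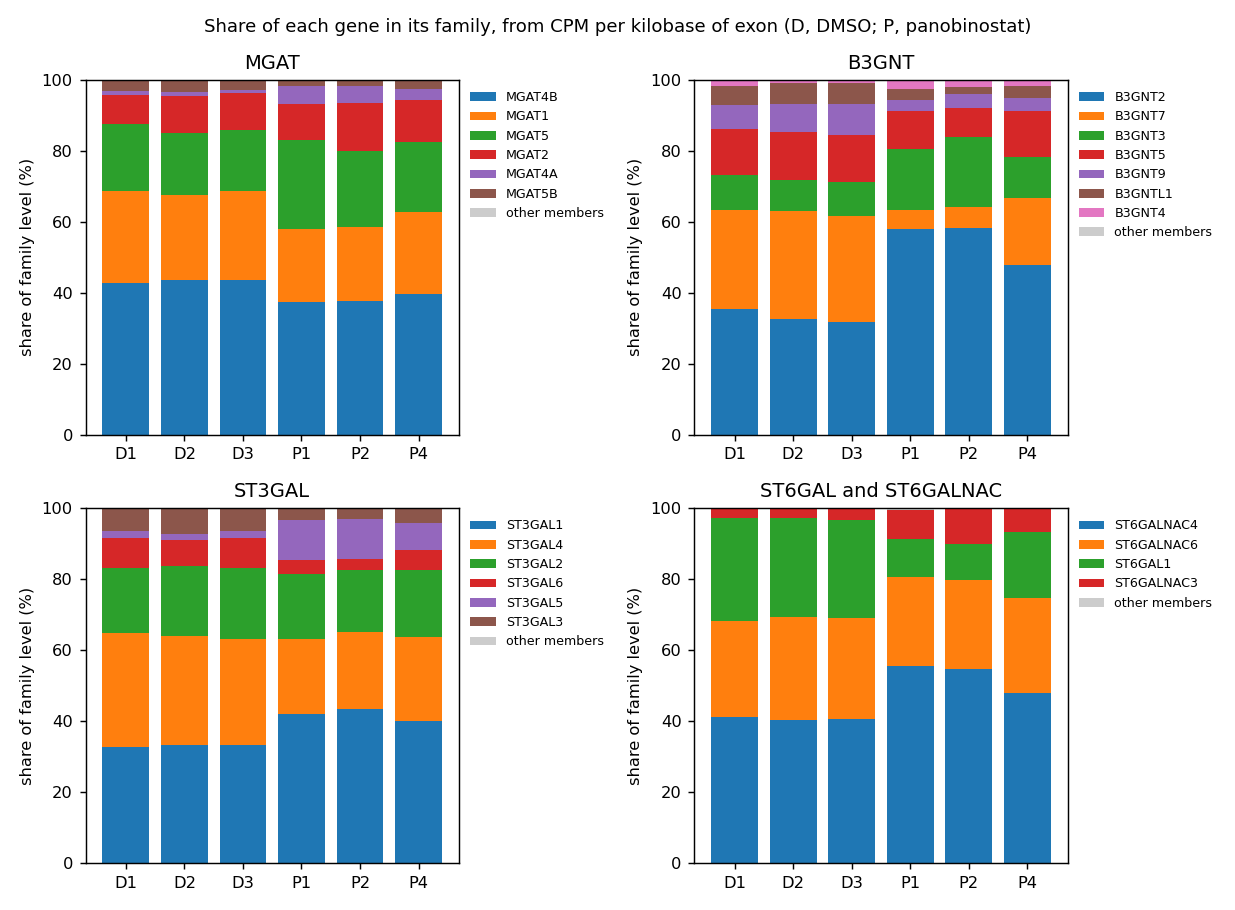
Share of each gene in the summed level of its family (vertical axis, percent, from CPM per kilobase of exon) in the DMSO libraries D1 to D3 and the panobinostat libraries P1, P2 and P4, for 4 families. B3GNT7 shrinks and B3GNT2 grows in all 3 panobinostat libraries, ST6GAL1 shrinks beside ST6GALNAC4 and ST6GALNAC3, and for B3GNT2, B3GNT7, ST6GAL1, ST3GAL5 and MGAT4A the share in P4 lies between those of the DMSO libraries and those of P1 and P2.

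Panobinostat replicate 4 showed smaller changes across the members. The 22 members called higher had a median log2 difference from the DMSO mean of 0.80 in replicates 1 and 2 together and 0.36 in replicate 4, smaller there for all 22. The 21 called lower had medians of -0.77 and -0.39, and replicate 4 was nearer to DMSO for 19 of them. The exceptions were B3GNT9 (-0.88 in replicates 1 and 2, -1.04 in replicate 4) and GALNT5 (-0.40 and -0.57). Without that library 22 members were called higher and 22 lower, the 43 calls of all 6 libraries among them. At least 2-fold changes numbered 8 and 4, and the 2-fold share over all tested genes was not computed for that fit. In that setting 37.6% of all tested genes were called higher and 36.9% lower. Why the library differs was not tested.

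**Figure D4:**
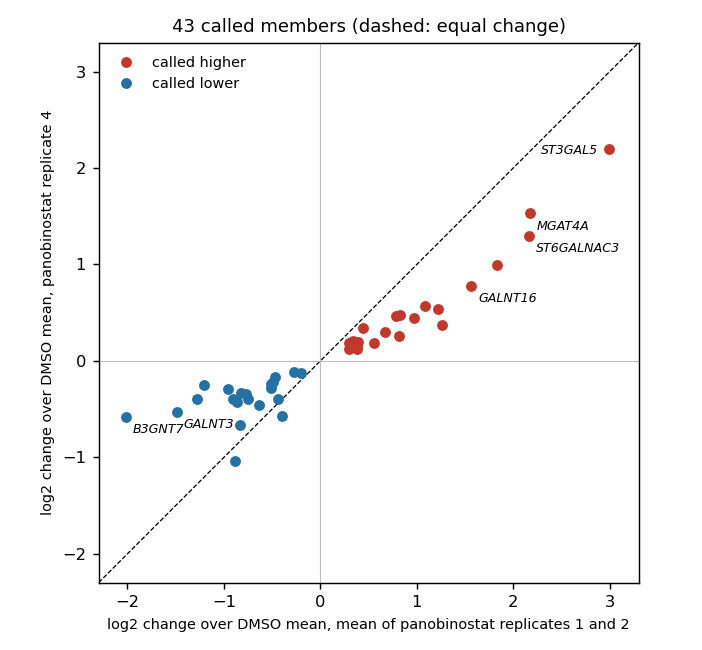
Log2 difference from the DMSO mean in panobinostat replicate 4 (vertical axis) against the mean of replicates 1 and 2 (horizontal axis) for the 43 called members, with a pseudocount of 0.1 CPM and a dashed line for equal change. All 22 members called higher lie below the line, and 19 of the 21 called lower lie nearer to 0 in replicate 4.

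The enzymes that supply the sugar donors showed 9 of 20 tested genes higher, 4 lower and 7 not called. In all, 65.0% were called, beside 58.9% of all tested genes (30.2% higher, 28.6% lower). The steps of sialic acid synthesis were among both directions. GNE, the first and rate-limiting enzyme of sialic acid synthesis, fell from 70.95 ± 1.06 to 36.00 ± 8.45 CPM (log2 -0.99 ± 0.15, edgeR adjusted p = 0.00177). CMAS, which activates sialic acid to CMP-sialic acid, fell from 60.02 ± 2.26 to 40.9 ± 6.91 CPM (log2 -0.56 ± 0.12, edgeR adjusted p = 0.00627). NANS, the sialic acid synthase between these steps, rose from 74.4 ± 2.85 to 112 ± 15.5 CPM (log2 0.59 ± 0.11), and SLC35A1, the Golgi transporter of CMP-sialic acid, was not called (log2 0.24 ± 0.17). GMDS, the first enzyme of GDP-fucose synthesis, rose from 32.7 ± 1.48 to 51.7 ± 4.4 CPM (log2 0.66 ± 0.10, edgeR adjusted p = 0.0016). PGM3, an enzyme of UDP-GlcNAc synthesis, rose from 55.8 ± 4.8 to 88.1 ± 12.3 CPM (log2 0.66 ± 0.12), and GALT of galactose metabolism rose from 11.4 ± 0.502 to 16.9 ± 3.6 CPM (log2 0.59 ± 0.17). The call of GALT was lost without any 1 DMSO library or panobinostat 1 (edgeR adjusted p 0.058 to 0.0912). Without panobinostat replicate 4 the list held 12 higher and 6 lower, where 37.6% of all tested genes were called higher and 36.9% lower.

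C1GALT1, which makes core 1 itself, was not called (log2 0.06 ± 0.07), and its chaperone C1GALT1C1 fell slightly (log2 -0.28 ± 0.09, edgeR adjusted p = 0.0243), a call lost without DMSO 1 or 3 or panobinostat 1 (0.0518 to 0.102). Of 7 tested enzymes that trim N-glycans before branching, 2 rose and 3 fell. MAN1A1 and MAN1A2, the early Golgi mannosidases, rose by log2 values of 0.75 ± 0.13 and 0.51 ± 0.09. MAN2A1, the mannosidase after MGAT1, fell from 211 ± 7.15 to 150.1 ± 24.6 CPM (log2 -0.49 ± 0.11, edgeR adjusted p = 0.0068). Without panobinostat replicate 4 the trimming list held 4 higher and 3 lower of 8 tested. The gene added there, the Golgi mannosidase MAN1C1, passed the filter only through panobinostat, so it could not have been called lower. Of 7 tested genes for lysosomal or surface glycosidases, 3 rose and 1 fell. FUCA1, the lysosomal fucosidase, rose from 9.62 ± 0.893 to 24.1 ± 7.23 CPM (log2 1.35 ± 0.23, edgeR adjusted p = 0.00281), and NEU3, the ganglioside sialidase of the plasma membrane, rose from 37.4 ± 1.62 to 55.9 ± 9.5 CPM (log2 0.58 ± 0.13). FUCA2, its secreted relative, fell from 84.9 ± 1.7 to 65.7 ± 4.57 CPM (log2 -0.37 ± 0.08). Without panobinostat replicate 4, 4 glycosidase genes were higher and 3 lower. Of all tested genes, 37.6% were called higher and 36.9% lower in that setting, and 30.2% and 28.6% with all 6 libraries.

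Around GM3 synthase in the glycolipid pathway, 2 of 4 tested genes rose and 2 fell. A4GALT, the Gb3 synthase that competes for lactosylceramide, rose from 6.28 ± 1.21 to 22.8 ± 7.29 CPM (log2 1.87 ± 0.27, edgeR adjusted p = 0.00154). UGCG, which makes glucosylceramide, the precursor of lactosylceramide, rose from 169 ± 9.3 to 227 ± 21.2 CPM (log2 0.43 ± 0.08, edgeR adjusted p = 0.00419). B3GALNT1, the globoside synthase after A4GALT, fell from 42.3 ± 1.51 to 25.5 ± 10.2 CPM (log2 -0.75 ± 0.24, edgeR adjusted p = 0.0249), a call lost without any 1 library other than panobinostat replicate 4 (0.06 to 0.0828). UGT8, which makes galactosylceramide, fell from 29.95 ± 1.76 to 20.7 ± 4.07 CPM (log2 -0.53 ± 0.14, edgeR adjusted p = 0.0138), a call lost without DMSO 1 or panobinostat 1 (0.0503 to 0.0626). Among genes that modify finished sugars, CASD1, which O-acetylates sialic acid, fell from 15.3 ± 0.662 to 4.27 ± 2.04 CPM (log2 -1.90 ± 0.28, edgeR adjusted p = 0.00158). CHST2, a GlcNAc sulfotransferase of selectin ligands, rose from 51.9 ± 2.83 to 85.1 ± 9.02 CPM (log2 0.72 ± 0.10, edgeR adjusted p = 0.00131). GAL3ST3 fell from 2.45 ± 0.597 to 1.1 ± 0.25 CPM (log2 -1.21 ± 0.31), a call lost without panobinostat 1 (edgeR adjusted p = 0.0742, the highest over its alternatives). It passed the filter only through the DMSO libraries, so it could not have been called higher.

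**Figure D5:**
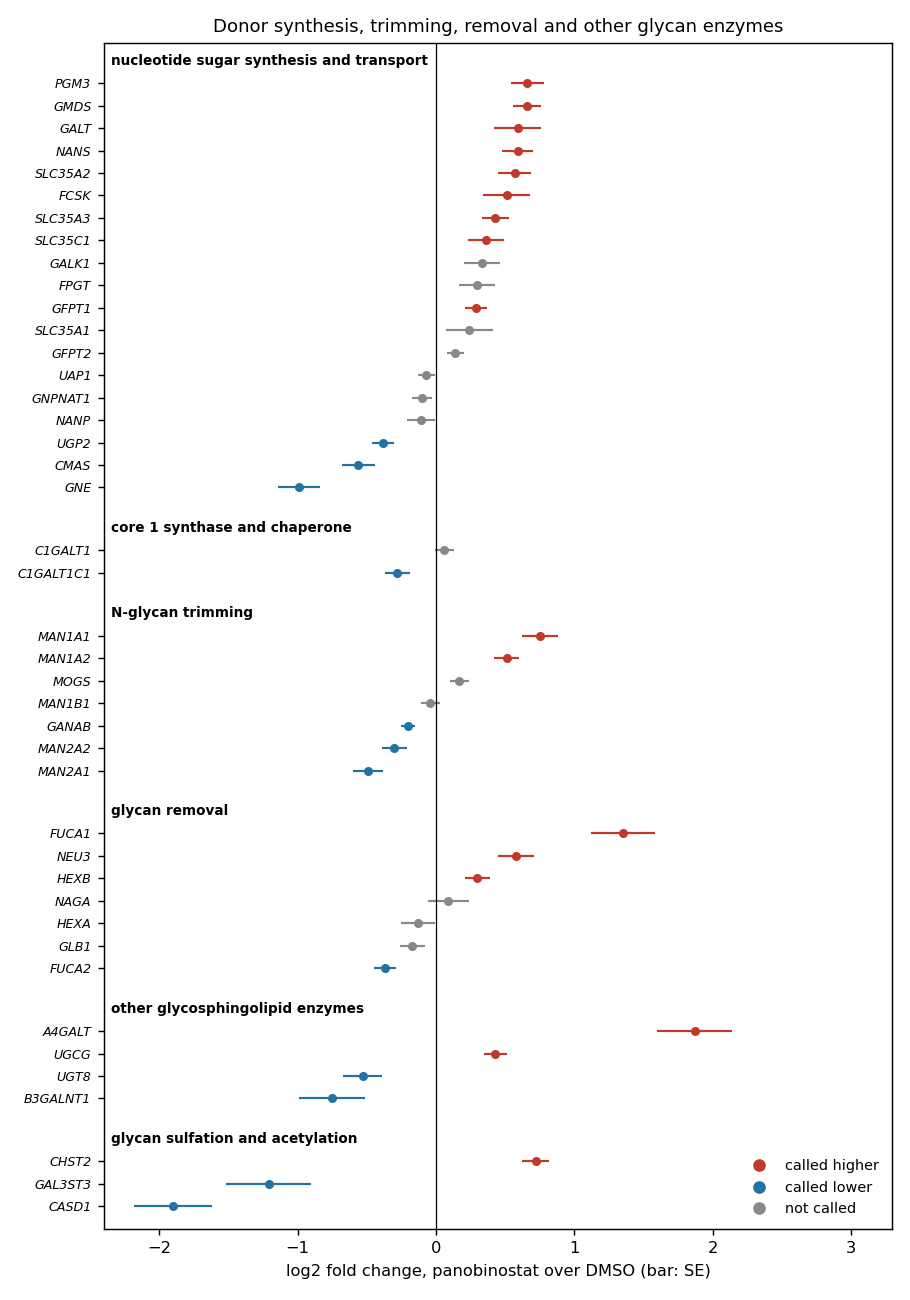
Log2 fold change of panobinostat over DMSO (horizontal axis, bars for the SE, n = 3 per group) for tested genes that make sugar donors, trim or remove glycans, build other glycolipids, or sulfate and acetylate sugars. The estimates run from -1.90 for CASD1 to 1.87 for A4GALT, and GNE and CMAS lie below 0 while NANS lies above it.

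Of the 4 tested genes for proteins that carry many O-glycans, CD24 and SELPLG rose and CD44 and PODXL were not called. CD24 and SELPLG passed the filter only through the panobinostat libraries, so a rise was the one call open to them, and MUC15, with 23 counts in DMSO and 12 in panobinostat, was not tested. CD24, a small mucin-type surface protein, rose from 0.727 ± 0.114 to 13.5 ± 2.38 CPM (log2 4.16 ± 0.25, edgeR adjusted p = 0.000573), and SELPLG, the P-selectin ligand, from 0.961 ± 0.55 to 3.2 ± 0.601 CPM (log2 1.64 ± 0.38, edgeR adjusted p = 0.00732). The abundant carriers CD44 and PODXL had log2 differences of 0.09 ± 0.05 and -0.04 ± 0.05, and CD44 was called higher without panobinostat replicate 4 (edgeR adjusted p = 0.00963, within 6.18e-06 to 0.763 over its alternatives). Of 3 tested galectins, which bind galactose-ended chains, LGALS8 fell from 252 ± 10.1 to 151 ± 34.9 CPM (log2 -0.74 ± 0.14, edgeR adjusted p = 0.00409), and LGALS1 and LGALS3 were not called. LGALS3 was called lower without panobinostat replicate 4 (edgeR adjusted p = 0.00111, within 0.00111 to 0.164 over its alternatives), which gave 0 galectins higher and 2 lower. Of 13 genes that tether Golgi membranes or hold enzymes in place, 5 rose and 3 fell, where 30.2% and 28.6% of all tested genes did. Without panobinostat replicate 4 there were 6 and 5. In that setting 37.6% of all tested genes were called higher and 36.9% lower. COG5 and COG2, subunits of the tether that recycles glycosyltransferases, rose by log2 values of 0.70 ± 0.10 and 0.68 ± 0.11, and GOLGB1 by 0.61 ± 0.10. GOLPH3, which retains glycosyltransferases in the Golgi, fell from 129.6 ± 4.21 to 85.1 ± 16.1 CPM (log2 -0.61 ± 0.12, edgeR adjusted p = 0.00483), and TMEM165, a Golgi manganese transporter that many of the enzymes depend on, fell from 130.2 ± 1.6 to 103 ± 9.76 CPM (log2 -0.33 ± 0.08). COG1 fell by a log2 value of -0.24 ± 0.08, a call lost without any 1 library other than panobinostat replicate 4 (edgeR adjusted p 0.0525 to 0.12).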

How the data were processed

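RNA-seq libraries of MDA-MB-231 cells, 3 with DMSO and 3 with panobinostat, were analysed from 1 table of raw counts per gene that the authors deposited. Per the labels' protocols, libraries were made with a stranded mRNA kit. The build GRCh38.p14 and the tool FastQC are named in the submitters' processing notes. Aligner, annotation and strand setting were not given in the sources used here, so reads of overlapping genes may be shared between them. The deposited table keys its counts and its symbols by separate identifier columns, of which 148 lines repeat an identifier, and these were matched by identifier. The members and lists were chosen with earlier results of these data known.

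Counts were fitted with edgeR 4.0.16 in R 4.3.3 (robust quasi-likelihood, TMM scaling, filterByExpr, all 6 libraries, treatment as the only term), and p-values were adjusted by Benjamini-Hochberg over 13341 genes. Each SE was derived from a log2 estimate and its F statistic. An exact test of 3 against 3 libraries cannot go below p = 0.1 and was not used. Genes below the filter are given as counts, with exact 95% intervals of the depth-scaled ratio.

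Every called member is named, with every uncalled one of at least 20 CPM. Values in each library are given for the 8 largest rises and 6 largest falls among called members with a group mean of at least 5 CPM. Other uncalled members were named after their values were seen. From each other list up to 3 called genes per direction are named (1 such gene is not reported here and stays in the count of its list), as are NANS, SLC35A1, C1GALT1, CD44, PODXL, LGALS1 and LGALS3 beside them. Alternatives were other scaling factors, other filters, the DESeq2 1.42.0 Wald test, limma 3.58.1 voom with library quality weights, a replicate block, and each library left out in turn. Class and list counts without panobinostat replicate 4, and the alternatives of genes outside the members, were added after seeing the data.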

Additional observations from a re-analysis of the deposited data

How the results depend on the processing

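Over 14 alternatives, 26 of the 43 called members kept their call in each, 17 lost it in at least 1, 3 of the 12 uncalled members gained one, and 0 were called with the other sign. Members called higher and lower numbered 22 and 21 with DESeq2 size factors, 22 and 20 with upper-quartile factors, 22 and 19 with library size only, 20 and 21 without the filter, 20 and 20 with at least 10 counts in every library, 18 and 20 by DESeq2, and 22 and 22 with quality weights. Leaving out 1 library gave 13 to 22 higher and 14 to 22 lower, with the lowest counts without panobinostat replicate 1, where 23.1% and 19.5% of all tested genes were called, and the highest without replicate 4, where 37.6% and 36.9% were. The median log2 fold change of tested members was 0.04 with upper-quartile factors, 0.06 with library size only, 0.10 without the filter (0.07 over all genes), 0.05 with at least 10 counts, 0.02 with quality weights, and -0.08 to 0.05 with 1 library left out, so its sign is not stable. From plain counts in place of counts per kilobase, mean shares in panobinostat were 19.4% for GALNT1, 28.5% for MGAT4B, 35.2% for B4GALT1, 43.9% for B3GNT2, 30.6% for ST6GALNAC4 and 85.9% for FUT8, against 28.3%, 38.2%, 33.2%, 54.6%, 52.7% and 82.6%, because exon length no longer enters. With the replicate block, 23 members were higher and 22 lower, with a median of 0.04. The groups share only the numbers 1 and 2, and deviations of same-numbered libraries correlated at 0.0566 and 0.00774 across genes. These are deviations from group means of 3 libraries, and panobinostat replicate 4 stands apart. They therefore cannot show whether the numbers pair the libraries. Members with few counts, 26 of 81, were out of reach of the test at this depth.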

Other observations

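GFUS, which makes GDP-fucose, did not pass the filter and was uneven among the panobinostat libraries: it stood at 0.460, 15.8 and 0.602 CPM in replicates 1, 2 and 4, with 24 counts over the DMSO libraries and 97 over panobinostat. MAN1C1, a Golgi mannosidase, had 1 count over the DMSO libraries and 57 over panobinostat and was not tested in the fit of all 6 libraries. Both were singled out after their values were seen.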
